A study of Mus musculus with 12 samples.

Results

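Fatty acid binding proteins and the fatty acid receptor Cd36 were examined in whole kidneys of mice with and without chronic kidney disease (CKD). The set holds 5 genes, Fabp1, Fabp3, Fabp4, Fabp5 and Cd36, of 22053 rows in the expression table. They were chosen by the Fabp1 values, which differed most clearly between CKD mice that did and did not receive iron; the other 4 came with it as its family. For that reason the values of Fabp1, and those of all 5 genes in CKD+Fe against CKD mice, are given as a description with no test. The other 4 genes were tested against control mice. Each of the 5 genes passed the filter on low values, and 13148 genes entered the fit.

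Fatty acid binding proteins are small intracellular proteins that carry long-chain fatty acids and other lipids through the cytosol to membranes, mitochondria, peroxisomes and the nucleus. Fabp1 is the liver type, Fabp3 the heart type, Fabp4 the adipocyte type and Fabp5 the epidermal type. Fabp4 is also known from capillary endothelium and macrophages. Cd36 is a membrane glycoprotein that takes up long-chain fatty acids and oxidized lipoproteins. In the kidney, proximal tubule cells draw most of their energy from fatty acid oxidation, a program controlled in large part by the nuclear receptor PPAR-alpha, of which Fabp1 is a known target.

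Kidneys of 12 C57BL/6 mice, 4 per group, were measured by RNA sequencing with 1 library per mouse. CKD mice were fed a 0.2% adenine diet from 8 to 16 weeks of age, which injures the tubules, and received weekly i.p. injections of PBS. CKD+Fe mice were on the same adenine diet and received weekly i.p. iron dextran, 0.5 g/kg per dose. Control mice were fed the matching diet without adenine and received PBS. The labels name each mouse by a number, which is used here, and give no batch. The tissue was bulk kidney, so fewer cells of a type and less RNA per cell cannot be told apart in any result.

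Expression is given in FPKM, the fragments of a gene per kilobase of its length relative to all mapped fragments of that mouse, so levels can be compared between genes per length. The depth in reads is unknown, and no counting error can be given. Of 13148 genes, 596 in control mouse 042301, 806 in CKD mouse 110310 and 442 in CKD+Fe mouse 042702 lay at least 2-fold from the mean of the other mice of the group, against 42 to 225 in the other 9 mice. Results are therefore also given without these 3 mice. They were picked by their spread in these same data. Leaving them out narrows the spread within groups, so calls of that fit are a description. Most genes had higher FPKM in diseased kidneys: the median log2 difference over all genes tested was 0.50 in CKD and 0.50 in CKD+Fe mice against control mice. It was near 0 between CKD+Fe and CKD mice. Values after median-of-ratios rescaling, which sets this shift to about 0, are given where they bear on a result.

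Fabp1 was low in control and CKD kidneys and high in every iron-treated kidney. It was at 1.24, 1.35, 2.97 and 1.84 FPKM in control mice 012811, 012822, 042301 and 042310. In CKD mice 021320, 022301, 110310 and 120102 it was at 3.41, 2.44, 0.891 and 5.65 FPKM. CKD+Fe mice 042702, 062910, 111710 and 122320 had 28.5, 16.45, 73.5 and 46.1 FPKM. The lowest iron-treated mouse was thus above the highest mouse of either other group, while control and CKD mice overlapped.

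The mean of Fabp1 was 1.85 ± 0.793 FPKM (SD, n = 4) in healthy kidneys, 3.10 ± 1.995 FPKM in untreated CKD kidneys and 41.1 ± 24.8 FPKM with iron. The ratio of the means was 13.3 for CKD+Fe against CKD and 22.2 for CKD+Fe against control mice. On the scale of log2(FPKM + 1), which understates the change of a low gene, the difference was 3.30 against CKD and 3.72 against control mice. It ranked 1 among the rises with iron over all genes tested, which is the value that chose it. Without the 3 mice that stood apart these differences were 3.08 and 4.0. Between CKD and control mice Fabp1 differed by 0.42, by 0.00 after median-of-ratios rescaling and by -0.43 after quantile normalization, so its direction in CKD changed with the scaling. Among the 22053 rows Fabp1 ranked 10643 by mean level in control mice, 11284 in CKD mice and 2407 in CKD+Fe mice.

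**Figure D1:**
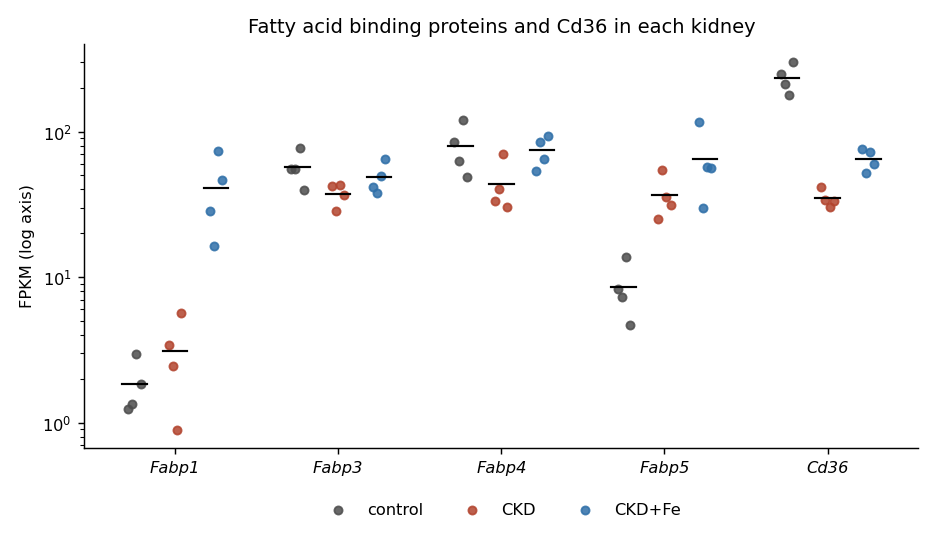
FPKM of the 5 genes on a log axis, 1 point per mouse (4 per group), with a black line at the group mean. Fabp1 of the CKD+Fe mice sits between 16.45 and 73.5 FPKM, above all 8 other mice, and Cd36 of the control mice sits between 178.9 and 299 FPKM, above all 8 diseased mice.

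The gene Fabp1 is located on chromosome 6 (GRCm38) between 71199827 and 71205023 on the plus strand, and its coding transcript has 4 exons and 553 bases in GENCODE M21. None of the 504 windows of 50 bases in this transcript, the length of the reads, occurs in a transcript of another gene. The bases in front of the transcript are shown because they hold a direct repeat of AGGNCA spaced by 1 base, the type of element that PPAR-alpha with its partner RXR is known to bind. In the stretch below, taken from RefSeq (GRCm38.p6) at chr6:71199727-71199826 on the plus strand, the capitals mark this match, which reads AGGCCATAGGTCA on the other strand.
Fabp1: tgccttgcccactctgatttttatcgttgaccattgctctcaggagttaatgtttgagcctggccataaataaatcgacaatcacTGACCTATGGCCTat

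The match lies at -67 to -55 from the RefSeq start, chr6:71199812-71199824. Searched on both strands in the 250 bases before each start, AGGNCA followed by any base and AGGNCA again was found in 111 of 32851 promoters of the RefSeq table (0.338%). Among the 3 members with an entry it was found in Fabp1 and not in Fabp3 or Cd36. The RefSeq starts of Fabp3 (130308738) and Cd36 (17835896) lie inside the gene spans of GENCODE, so the windows searched there lie wholly or in part within the genes. Of 15 PPAR-alpha target genes with an entry, 0 held these letters in this window. Fabp1 also has a TATAAA at -30 to -25, found in 12.4% of promoters, and a TGACNNNGC, the core of the antioxidant response element, at -9 to -1, found in 10.2%. GTTAAT was found in Fabp1 at -107 to -102 (6.43% of promoters) and CCAAT in Cd36 at -195 to -191 (33.8%). The motifs in Fabp1 do not overlap each other. The GENCODE transcript of Fabp1 begins at 71199827, before the RefSeq start at 71199879, so the TATAAA and the TGACNNNGC lie inside that transcript. These matches are descriptions of letters, and binding was not measured.

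Liver markers were examined because Fabp1 is the liver type. Of 12 liver markers, Cps1 and Ahsg did not pass the filter. The summed level of the list was 392.9 to 953 FPKM for control, 286 to 632 FPKM for CKD and 310 to 989 FPKM for CKD+Fe mice. Of the 10 tested, 5 were higher and 2 lower in CKD, and 7 were higher and 1 lower in CKD+Fe against control mice, with medians of 0.43 and 1.05. Between CKD+Fe and CKD mice 8 of the 10 had a higher mean log2(FPKM + 1) with iron, with a median of 0.46. None passed (limma), and 3 were higher by the unadjusted p. Apoc3, an apolipoprotein, averaged 27.3, 36.2 and 63.2 FPKM in control, CKD and CKD+Fe kidneys. Alb, the transcript of serum albumin, averaged 5.86, 1.49 and 4.19 FPKM. Both were named for the largest differences with iron in the list. Fga and Fgb, with the largest rises in CKD, averaged 10.5, 89.6 and 72.55 FPKM and 0.393, 9.05 and 9.02 FPKM. Ttr, which the naming rule did not select, averaged 466, 288 and 288 FPKM. That was most of the mean summed level of the list, which was 541, 492 and 537 FPKM, so the sum mainly follows Ttr. The part of liver-type transcripts in the Fabp1 values was not tested.

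Cd36 had the highest level of the 5 genes in control kidneys and the largest fall in CKD. It was at 248, 213, 178.9 and 299 FPKM in the 4 control mice, in the order of mice given for Fabp1. The CKD mice had 41.6, 34.1, 30.5 and 33.6 FPKM, and the CKD+Fe mice 75.5, 51.9, 72.0 and 59.9 FPKM. The 3 groups did not overlap, with control mice highest, CKD mice lowest and iron-treated mice between them.

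The mean of Cd36 was 6.71-fold lower in CKD than in control mice (35.0 ± 4.72 against 234.6 ± 51.1 FPKM, SD, n = 4). The log2 difference was -2.69 (standard error 0.17, adjusted p = 7.57e-08 by limma, corrected over the 13148 genes). No CKD mouse reached the lowest control mouse, and the exact permutation test, two-sided, gave its minimum for groups of 4 (p = 0.0286). Such a separation was seen in 10.4% of all genes, and 58 genes had a larger fall than Cd36. CKD+Fe mice were also below control mice, by a log2 difference of -1.83 (standard error 0.17, adjusted p = 2.46e-06, limma), a comparison that shares the control mice and in which 9.82% of genes were separated in this direction. Against CKD mice, CKD+Fe mice had 1.85 times the mean Cd36, a log2 difference of 0.87, with no overlap. In this direction 1.35% of genes did not overlap.

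Cd36 spans chromosome 5 from 17781690 to 17888801 on the minus strand of GRCm38, with 6 listed coding transcripts, and FPKM per gene do not separate them. Without the 3 mice that stood apart, the log2 differences of Cd36 were -2.76 in CKD and -2.03 in CKD+Fe against control mice. After median-of-ratios rescaling they were -3.31 and -2.44.

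Fabp4 and Fabp3 were lower in CKD than in control mice by smaller amounts, with overlap. Fabp4 was at 85.1, 62.7, 119.7 and 48.9 FPKM in control mice. CKD mice had 33.1, 40.05, 70.0 and 30.2 FPKM, and iron-treated mice 53.6, 84.8, 65.1 and 93.0 FPKM. CKD mouse 110310 lay above control mice 012822 and 042310, and the other 3 CKD mice lay below all control mice. The log2 difference in CKD against control mice was -0.85 (95% confidence interval -1.49 to -0.22, adjusted p = 0.0201, limma). The exact permutation test gave p = 0.0857, two-sided.

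The CKD call for Fabp4 rested on single mice: without control mouse 012811 or 042301, or without CKD mouse 021320 or 120102, its adjusted p (limma) was 0.0511, 0.0647, 0.0558 and 0.0628. Without the 3 mice that stood apart it was 0.00219, with a log2 difference of -0.88. Over the 7 alternative fits the log2 difference was -1.46 to -0.85. Their adjusted p (limma) was 0.000564 to 0.0365, so each kept the call. CKD+Fe mice differed from control mice by -0.05 (95% confidence interval -0.68 to 0.59, adjusted p = 0.902, limma), which neither shows a change nor that the groups are alike. Over the 7 alternative fits this small value ranged from -0.65 to 0.32, the latter without the 3 mice. Their adjusted p (limma) was 0.0904 to 0.951. CKD+Fe mice had 1.71 times the mean Fabp4 of CKD mice, a log2 difference of 0.81, with overlap through CKD mouse 110310.

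Fabp4 and Cd36 are both abundant in fat cells, and markers of these cells varied between kidneys. Of 10 adipocyte markers, 8 did not pass the filter, and the summed level was 18.5 to 51.4 FPKM for control, 8.59 to 15.1 FPKM for CKD and 10.9 to 190.1 FPKM for CKD+Fe mice. CKD+Fe mouse 122320 had 11.3 FPKM of Adipoq, the adipocyte hormone adiponectin, and 96.2 FPKM of Cfd, the adipocyte protease adipsin. Cfd was at 10.5 FPKM in CKD+Fe mouse 111710, at 10.2 FPKM in 012822 of the control group and under 1 FPKM in the other 9 mice. Mouse 122320 also had the highest Fabp4 of its group, while the highest Cd36 of the group was in mouse 042702, with 0.0544 FPKM of Cfd. Fabp4 in 111710 was 65.1 FPKM, below 84.85 FPKM in 062910 with 0.311 FPKM of Cfd. In control mouse 012822 Fabp4 was 62.7 FPKM, below 85.1 FPKM in 012811 with 0.168 FPKM of Cfd. The part of fat tissue in the Fabp4 values was not tested.

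Endothelial cells are another known source of Fabp4 and Cd36. Of 12 endothelial markers, 1 passed the threshold in CKD by limma, Kdr, the main VEGF receptor, which fell by 0.67 on the log2 scale. Relative to the shift of all genes the list looked different: after median-of-ratios rescaling 8 of the 12 were lower, and after quantile normalization 5. The summed level was 278 to 619 FPKM for control, 225 to 440.0 FPKM for CKD and 288 to 450.4 FPKM for CKD+Fe mice.

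Fabp3, which carries fatty acids in heart, muscle and kidney, was at 55.5, 55.4, 76.7 and 39.95 FPKM in control mice. It was at 42.3, 28.4, 42.6 and 36.7 FPKM in CKD mice and at 41.9, 37.95, 49.7 and 64.6 FPKM in CKD+Fe mice. The lowest control mouse, 042310, lay below 2 CKD mice, so these groups overlapped. The log2 difference in CKD against control mice was -0.57 (95% confidence interval -1.02 to -0.12, adjusted p = 0.0269, limma), and the exact permutation test, two-sided, gave p = 0.0857.

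Leaving out control mouse 012811, 012822 or 042301 moved the adjusted p of Fabp3 to 0.0513, 0.051 and 0.0819 (limma). Without CKD mouse 022301 or 120102 it was 0.0901 and 0.0505. Without the 3 mice that stood apart it was 0.0561 with a log2 difference of -0.48. Over the 7 alternative fits the log2 difference was -1.18 to -0.48 and the adjusted p (limma) 0.000373 to 0.0561. In CKD+Fe against control mice the log2 difference was -0.22 (95% confidence interval -0.67 to 0.23, adjusted p = 0.373, limma). Relative to the shift of all genes it was -0.82, past the threshold at an adjusted p of 0.00552 (limma after median-of-ratios rescaling). CKD+Fe mice differed from CKD mice by 0.35, with overlap. The Fabp3 values carry a further limit, since 29.2% of the 50-base windows in its coding transcript also occur in the processed pseudogene Fabp3-ps1, and how such reads were divided is not given in the sources used here.

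Fabp5 was the member that rose in CKD. It was at 8.29, 7.34, 13.7 and 4.72 FPKM in control mice, at 25.0, 54.6, 35.5 and 31.3 FPKM in CKD mice and at 117.1, 29.7, 57.1 and 56.1 FPKM in CKD+Fe mice. All 8 diseased mice were above all control mice, and CKD and CKD+Fe mice overlapped.

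The mean of Fabp5 was 4.30-fold higher in CKD than in control mice (36.6 ± 12.8 against 8.50 ± 3.75 FPKM, SD, n = 4), a log2 difference of 2.01 (standard error 0.37, adjusted p = 0.000334, limma). In CKD+Fe mice it was 7.65-fold higher than in control mice, a log2 difference of 2.71 (standard error 0.37, adjusted p = 4.06e-05, limma). Relative to the shift of all genes the differences were 1.44 and 2.15, and without the 3 mice that stood apart 2.24 and 2.62. Over all genes, 44.6% had every CKD mouse above every control mouse and 50.4% every CKD+Fe mouse. Between CKD+Fe and CKD mice the log2 difference was 0.71, and it was 0.37 without mouse 042702. In the coding transcript of Fabp5, 21.1% of the 50-base windows are shared with 5 processed pseudogenes.

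Fabp5 is known from macrophages as well as epithelia, and macrophage transcripts were far higher in the diseased kidneys. All 14 macrophage markers tested, of 16 in the list, were higher in CKD and in CKD+Fe mice, with median log2 differences of 3.45 and 3.39. Itgam was not matched and Cd5l did not pass the filter. Their summed level was 165.5 to 357 FPKM for control, 2143 to 4376 FPKM for CKD and 2063 to 4534 FPKM for CKD+Fe mice. Lyz2, the macrophage lysozyme, rose by 4.81 and Trem2, a lipid-sensing receptor, by 4.41 on the log2 scale in CKD mice. All 10 tubule injury markers were also higher in CKD mice, among them Lcn2 by 7.05 and Havcr1 by 6.05. Fabp4, also known from macrophages, had a log2 difference of -0.85 in CKD against control mice. The part of macrophages and injured tubules in the Fabp5 and Fabp4 values was not tested.

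Of the 4 members tested, 1 was higher and 3 were lower in CKD than in control mice, where 67.9% of all genes passed the threshold, 54.6% higher and 13.3% lower. In CKD+Fe against control mice 1 was higher and 1 lower, where 65.4% of all genes passed, 54.4% higher and 11.0% lower. Cd36 and Fabp5 kept their calls under each alternative run.

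**Figure D2:**
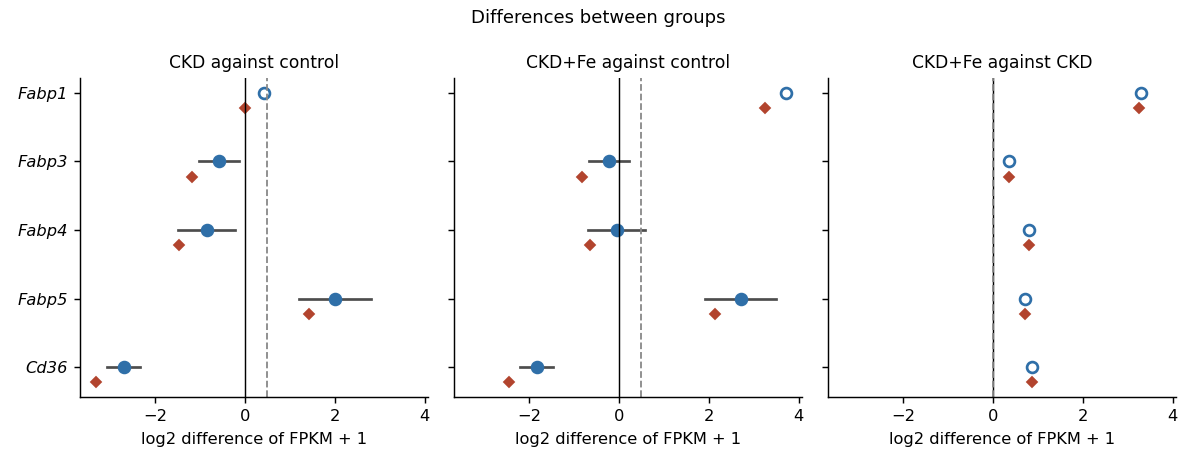
Difference of mean log2(FPKM + 1) for each gene in the 3 comparisons, first group minus second. Filled circles with bars are tested values with 95% confidence intervals, open circles are descriptions, red diamonds are values after median-of-ratios rescaling and the dashed line is the median of all genes tested (0.50, 0.50 and near 0). The intervals of Cd36 and Fabp5 lie away from 0 in both comparisons with control mice.

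The makeup of the summed binding proteins differed between the groups. The sum and the shares hold Fabp1, whose values chose the family, so their differences with iron are a description with no test. The 4 fatty acid binding proteins summed to 146.4 ± 49.8 FPKM in control mice (SD, n = 4), to 120.5 ± 21.6 FPKM in untreated CKD mice and to 229 ± 40.7 FPKM in iron-treated mice. Control mice ranged from 95.5 to 213 FPKM, CKD mice from 103.7 to 149.0 FPKM and CKD+Fe mice from 169.0 to 259.9 FPKM, so the iron-treated mice were above all CKD mice and overlapped with control mice.

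In control mice Fabp4 made up 53.4% and Fabp3 39.6% of the sum on average, with Fabp5 at 5.67% and Fabp1 at 1.30%. In CKD mice Fabp5 made up 30.4%, close to Fabp4 at 35.0% and Fabp3 at 31.8%, and Fabp1 2.82%. In CKD+Fe mice Fabp1 reached 17.3%, from 9.73% to 29.95% in single mice, beside 33.7% for Fabp4, 27.8% for Fabp5 and 21.2% for Fabp3. A larger part of Fabp1 lowers the other shares. Fabp3 had a smaller share in CKD+Fe than in CKD mice, while its mean was 48.5 against 37.5 FPKM. By level per length the order in control mice was Cd36, Fabp4, Fabp3, Fabp5 and Fabp1, in which Fabp4 and Fabp3 overlapped and the other neighbours did not. In CKD and in CKD+Fe mice Fabp3, Fabp4, Fabp5 and Cd36 lay within overlapping ranges. Fabp1 stayed apart below them in CKD mice and overlapped with them in CKD+Fe mice.

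**Figure D3:**
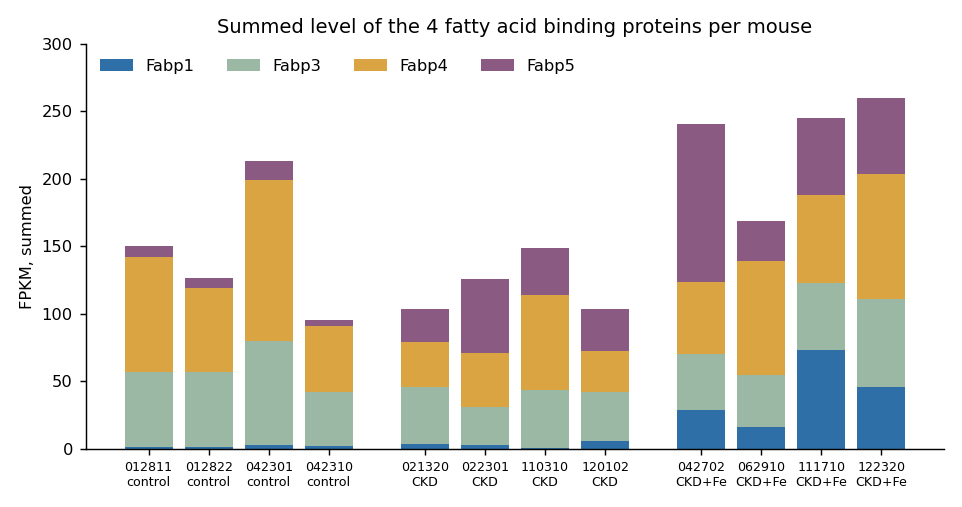
Stacked FPKM of Fabp1, Fabp3, Fabp4 and Fabp5 in each of the 12 mice, named by number and group. Fabp1 makes up 9.73% to 29.95% of the bar in CKD+Fe mice and at most 5.44% in any other mouse, and Fabp5 makes up 23.8% to 43.5% in CKD mice against 4.95% to 6.41% in control mice. The Fabp1 values chose the family, so its part of the bars is a description.

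Relatives of the family were mostly silent in kidney. Of 11 intracellular lipid binding relatives, 9 did not pass the filter, among them Fabp2, the intestinal type, and Fabp6, the bile acid binding type. Fabp7, the brain type, was lower at 5.87 against 10.9 FPKM (log2 difference -0.80, adjusted p = 0.00374, limma), and averaged 9.52 FPKM in CKD+Fe mice. Fabp5 and Fabp4 lie in the same cluster on chromosome 3, from 10012548 to 10016607 on the plus strand and from 10204088 to 10208576 on the minus strand, 187481 bases apart. Their neighbours Pmp2, Fabp9 and Fabp12 averaged under 0.1 FPKM in each group, so 2 fatty acid binding protein genes of the cluster were expressed, Fabp5 higher and Fabp4 lower in CKD. Fabp3 lies on chromosome 4 from 130308595 to 130315463 on the plus strand.

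Uptake and activation of fatty acids changed in both directions in CKD. Of 15 genes tested, 5 were higher and 5 lower, with a median of -0.04 against 0.50 over all genes. After median-of-ratios rescaling 4 were higher and 8 lower, so the even split depended on the scaling. Lpl, the lipase that frees fatty acids from lipoproteins, fell by 2.64 and Slc27a2, the main fatty acid transporter of the proximal tubule, by 1.95 on the log2 scale. Acsl4, which activates arachidonic acid, rose by 2.04 and Scarb1, the HDL receptor, by 1.14. With iron 0 of these genes passed the threshold (limma), 2 were higher by the unadjusted p, and the largest differences were 0.48 for the transporter Slc27a1 and 0.48 for Lrp2, the endocytic receptor megalin.

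Genes of triglyceride synthesis and lipid droplets were likewise split, with 6 of 16 higher and 5 lower in CKD and a median of 0.15. The desaturase Scd2 rose by 1.40 and Hilpda, a droplet protein that inhibits lipolysis, by 1.39 on the log2 scale. Cideb, a droplet and lipoprotein assembly protein, fell by 1.89 and Dgat2, which completes triglycerides, by 1.68. Relative to the shift of all genes 3 were higher and 7 lower, so which direction led depended on the scaling.

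Known PPAR-alpha target genes, Fabp1 left out, were mostly lower in CKD. Of 19 tested, 11 were lower and 1 higher, with a median of -0.53, and 14 were lower after median-of-ratios rescaling. Ehhadh, a peroxisomal oxidation enzyme, fell by 2.44 (adjusted p = 0.000237, limma) and Acadm, the medium-chain acyl-CoA dehydrogenase, by 2.2 on the log2 scale (adjusted p = 1.38e-06, limma). Cyp4a14, a fatty acid omega-hydroxylase, was the 1 gene higher (log2 difference 2.06, adjusted p = 0.0176, limma), a call lost after both rescalings. Fabp1 had a difference of 0.42 in the same comparison.

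Between CKD+Fe and CKD mice 16 of the 19 target genes had a higher mean log2(FPKM + 1) with iron. Their median log2 difference was 0.43 against 0.00 over all genes. Some other lists had medians of like size. These were 0.48 for proximal tubule (16 of 17 higher), 0.51 for later nephron, 0.46 for liver and 0.54 for urothelial and papillary genes. Tubule injury had -0.60 (0 of 10 higher). Smaller medians were 0.01 for macrophage, 0.09 for triglyceride and droplet, 0.15 for endothelial, 0.15 for uptake and activation and 0.17 for receptor genes. The lipid binding relatives and adipocyte markers, with 2 genes tested each, had 0.21 and 0.94. With p unadjusted and under 0.05 (limma), 9 of the 19 target genes were higher and 0 lower, where 3.28% of all genes were higher and 2.73% lower. By the same rule 5 of 12 later nephron, 5 of 17 proximal tubule and 3 of 10 liver genes were higher and 0 lower. Of the uptake and activation genes 2 of 15 were higher, and 0 of the endothelial, macrophage and receptor genes. Of the tubule injury genes 6 of 10 were lower. The target genes were thus not the only list with such a count. None of the 19 passed the adjusted threshold (limma). Over all genes 0.00761% passed it, which is the call of Fabp1 that chose the family, and none did with a pseudocount of 0.1, without the filter or with only the 2 groups compared. The largest difference was that of Cyp4a14 at 2.09 (adjusted p = 0.59, limma). Without the 3 mice that stood apart, 4 of the genes passed, among them Acaa1b (1.61), Ehhadh (1.56) and Cpt2 (0.85). In the same fit 4 proximal tubule and 4 later nephron markers passed as well. Because the 3 mice were picked by their spread, these calls are a description. Cyp4a14, Acaa1b and some others have close paralogs, with which 50-base reads may be shared.

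In CKD+Fe mice 042702, 062910, 111710 and 122320 Cyp4a14 was at 150.4, 90.7, 385 and 358 FPKM. Its range was 12.9 to 107.9 FPKM for CKD and 4.54 to 31.4 FPKM for control mice. It had the same order over the 4 iron-treated mice as Fabp1, highest in 111710 and lowest in 062910, but overlapped with CKD mice. The receptor itself, Ppara, chosen here after its values were seen, averaged 7.27, 8.01 and 9.10 FPKM in control, CKD and CKD+Fe mice and did not pass in any comparison (limma).

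Among 10 receptors and partners, 1 was higher and 2 were lower in CKD. Pparg, the adipogenic receptor, was higher by 0.62, from 1.28 to 2.51 FPKM. Hnf4a, a nuclear receptor of liver and proximal tubule, fell by 1.52 on the log2 scale. Its values in control mouse 042301, CKD mouse 120102 and CKD+Fe mouse 122320 had a failed status and were left out. The call for Pparg was lost after both rescalings. With iron 0 of the 10 passed (limma), 0 also by the unadjusted p, and the largest differences were 0.33 for Ppargc1b and 0.33 for Pparg.

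**Figure D4:**
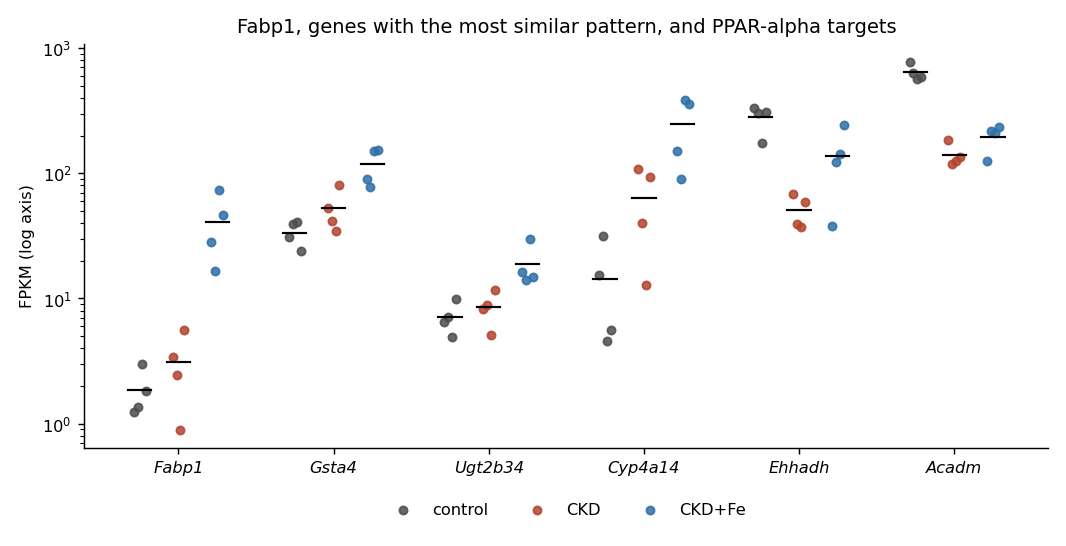
FPKM on a log axis of Fabp1, of Gsta4 and Ugt2b34, which followed it closely over the mice, and of the PPAR-alpha targets Cyp4a14, Ehhadh and Acadm, 1 point per mouse and a black line at the group mean. Fabp1 of CKD+Fe mice (16.45 to 73.5 FPKM) lies above all other mice, whereas Acadm lies below control mice in both diseased groups.

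The transcripts most like Fabp1 over the 12 mice, by Pearson's r of log2(FPKM + 1), were Gsta4 (r = 0.941), Shd (0.908), Ugt2b34 (0.903), Gm10639 (0.894) and Slc4a9 (0.891). Gsta4 is a glutathione transferase that clears lipid aldehydes, and Ugt2b34 is a glucuronosyltransferase. Gsta4 was at 23.7 to 40.6 FPKM for control, 34.8 to 80.6 FPKM for CKD and 78.1 to 154.7 FPKM for CKD+Fe mice. Within the 8 CKD and CKD+Fe mice its r with Fabp1 was 0.957, and in the 4 CKD mice both had the same order, highest in 120102 and lowest in 110310. These are descriptions over mice that share groups and scaling, chosen as the highest of all genes tested.

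Cd36 was most like Sucnr1, the succinate receptor (r = 0.968), then Pctp, a phosphatidylcholine carrier (0.964), Coq2 (0.964) and Lpl (0.963). Sucnr1 averaged 40.7, 5.15 and 11.4 FPKM in control, CKD and CKD+Fe mice, the same order of groups as Cd36. Fabp5 was most like Slc8b1, a mitochondrial sodium and calcium exchanger (r = 0.992), then Ap1m1, Rnaseh1, Six5 and Rad9a (0.980 to 0.984).

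Fabp4 was most like Coq7 (r = 0.932), Kxd1, Atp6v1f, Tmem97 and Il11ra1, and Fabp3 most like Ntf3 (0.899), Chchd7, Rhcg, Wfdc15b and Ppp1r1b. Rhcg, the ammonia channel of the collecting duct, averaged 57.2, 34.7 and 50.2 FPKM in control, CKD and CKD+Fe mice. Among the members, Fabp1 and Cd36 had r = -0.262 over 12 mice and 0.927 over the 8 CKD and CKD+Fe mice, where both were higher with iron. The latter is the highest r of any member pair over these mice. It spans the iron difference that chose Fabp1, so it is a description. Within the CKD+Fe mice Fabp1 was highest in 111710 (73.5 FPKM) and Cd36 in 042702 (75.5 FPKM).

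Kidney epithelium itself was present and altered in all diseased mice. Of 17 proximal tubule markers, 15 were lower in CKD with a median of -2.21, led by the transporter Slc22a7 (-5.90) and the androgen-regulated Kap (-4.84). Their summed level was 75210 to 98630 FPKM for control, 2503 to 9817 FPKM for CKD and 3649 to 14280 FPKM for CKD+Fe mice. Most of the mean sum was Kap, at 73020 of 83620 FPKM in control, 3585 of 5789 FPKM in CKD and 4437 of 7689 FPKM in CKD+Fe mice. The sum therefore mainly follows that gene. In CKD+Fe against CKD mice 0 of the 17 passed (limma), and 5 were higher by the unadjusted p. The largest differences were 1.42 for Slc7a13 and 1.36 for Slc22a12, both transporters. Without the 3 mice that stood apart 4 passed, namely Slc22a12 (1.81), Slc22a8 (1.54), Miox (1.44) and Slc13a3 (0.97). That fit leaves out mice picked by their spread, so these calls are a description. The part of proximal tubule transcripts in the fall of Cd36 and in the values of Fabp1 was not tested.

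Of 12 later nephron markers, 5 were lower and 1 higher in CKD, with a median of -0.09. Pvalb, parvalbumin of the distal tubule, fell by 3.42 and the anion exchanger Slc26a4 by 1.33, while the magnesium channel Trpm6 rose by 1.23. Of 8 urothelial and papillary genes tested, 2 were higher in CKD, Krt20 (4.60) and Sprr1a (2.29). Their summed level was 2.28 to 154.5 FPKM for control, 73.8 to 91.5 FPKM for CKD and 54.6 to 93.2 FPKM for CKD+Fe mice.

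**Figure D5:**
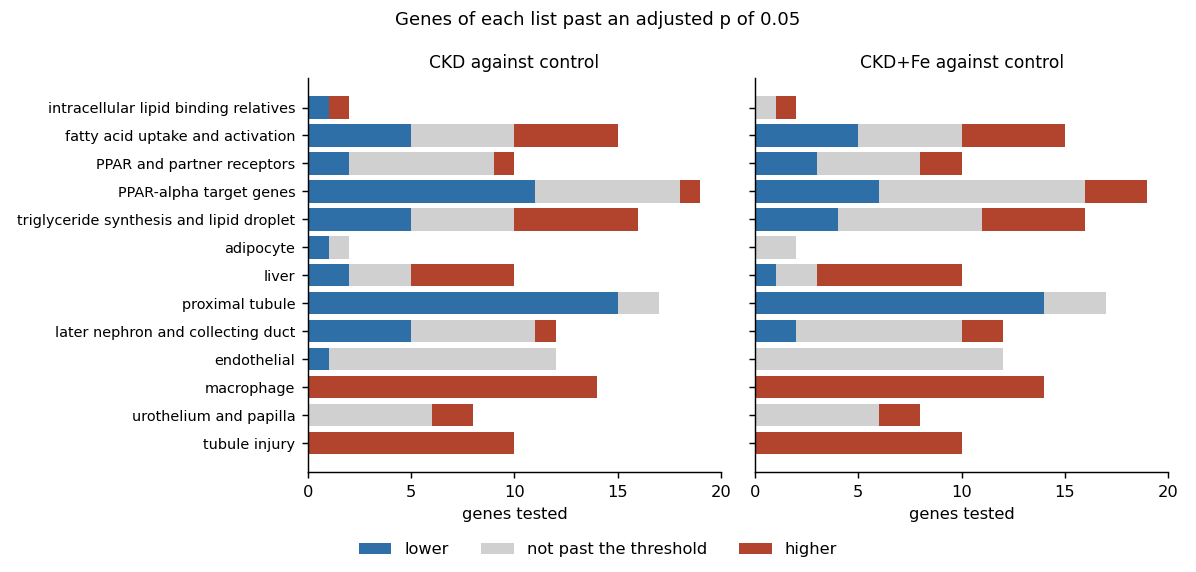
Number of tested genes per list that were lower, not past an adjusted p of 0.05 or higher, in CKD (left) and CKD+Fe (right) against the same control mice. PPAR-alpha targets are mostly lower in CKD (11 of 19) and less so in CKD+Fe mice (6 of 19, 3 higher), a difference that was not tested, and all 14 macrophage and 10 injury genes are higher in both.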

How the data were processed

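RNA from whole kidneys was sequenced by the authors as stranded mRNA libraries with single-end reads of 50 cycles. The authors deposited FPKM per protein-coding gene and mouse. The submitters' processing notes name bcl2fastq 2.19, STAR 2.5.2, Cufflinks 2.1.1 and GRCm38; the annotation is not given in the sources used here. FPKM are relative to the total of each mouse, so a change of total RNA was not measured. The depth is unknown, and read counts were not used here. The 30 values with a failed status were treated as missing.

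A pseudocount of 1 was added to the FPKM before taking log2. Genes that reached 1 FPKM in 4 or more mice (13148) were fitted in limma 3.58.1 (R 4.3.3; lmFit, contrasts.fit, eBayes with trend), all 12 mice together. The two-sided p was adjusted by Benjamini-Hochberg over these genes, with a threshold of 0.05. Single genes were also tested by exact permutation of 4 mice against 4 (70 arrangements). The fit was tested on simulated data in which a small set of genes was changed. No shift of all genes was added there, so that test does not bear on the scaling. Mice of a group are taken as separate animals from their numbers.

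The members and lists were chosen with earlier results of these data known. Named were the 5 members, per list the 2 largest rises and falls in CKD among genes past the threshold and the 2 largest differences with iron, and per member the 5 genes of highest Pearson r. Ppara, the adipocyte genes given per mouse and the genes named for the fit without 3 mice were chosen after their values were seen. Ttr was also named outside this rule. Alternatives were a pseudocount of 0.1, no filter, quantile normalization, median-of-ratios rescaling, array weights, a fit of the 2 groups compared alone, each mouse left out and 3 mice left out together. Gene positions are from GENCODE M21, and promoters from RefSeq (GRCm38.p6), which holds 3 of the 5 members. Promoters of Fabp4 and Fabp5 were not analysed here. Some items that this rule would name are not reported here.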

Additional observations from a re-analysis of the deposited data

How the results depend on the processing

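No paired analysis was possible because the groups share no replicate numbers. Cd36 and Fabp5 kept direction and call against control mice under all 7 alternatives and each mouse left out, with log2 differences of -2.82 to -2.57 (Cd36 in CKD), -1.95 to -1.71 (Cd36 in CKD+Fe), 1.79 to 2.24 (Fabp5 in CKD) and 2.38 to 3.03 (Fabp5 in CKD+Fe) when single mice were left out. Fabp3 in CKD ranged from -0.72 to -0.42 and Fabp4 in CKD from -1.11 to -0.63 when single mice were left out, and the calls were lost in 5 and 4 of 8 cases. Under the 7 alternatives Fabp3 in CKD ranged from -1.18 to -0.48 and Fabp4 in CKD from -1.46 to -0.85. Fabp4 kept its CKD call in each of them. Without mice 042301, 110310 and 042702 Fabp3 in CKD was -0.48 (adjusted p = 0.0561, limma). In CKD+Fe against control mice Fabp3 ranged from -0.37 to -0.06 and Fabp4 from -0.25 to 0.18 when single mice were left out. Fabp3 was -0.82 after median-of-ratios rescaling. Fabp4 was as low as -0.65 among the 7 alternatives, and turned to 0.071 with array weights and to 0.32 without the 3 mice. It also turned to 0.015 without control mouse 012811, to 0.18 without 042301, to 0.10 without CKD+Fe mouse 042702 and to 0.005 without 111710. Fabp1 in CKD turned to -0.43 after quantile normalization; in CKD+Fe against CKD mice it was 2.96 to 3.66 when single mice were left out.

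In CKD 7181 genes were higher and 1748 lower (80.4% of calls higher), against 3571 and 4075 after median-of-ratios rescaling (46.7%) and 3060 and 3363 after quantile normalization (47.6%). In CKD+Fe against control mice 7159 were higher and 1442 lower (83.2%), against 3427 and 3851 (47.1%) and 2605 and 2967 (46.8%). The 1 gene higher in CKD+Fe against CKD mice became 0 with a pseudocount of 0.1, with no filter and with only the 2 groups compared. It became 79 with array weights, with 56 lower, and 51 without the 3 mice, with 32 lower. When single mice were left out, 0 to 9 were higher and 0 to 4 lower. The cause was not tested. Of 423 list counts recomputed, 340 stayed within 1.5 times the value reported. FPKM without depth give no limit of detection.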
